A study of Rattus norvegicus with 4 samples.

Results

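Neurotransmitter receptor genes were followed in PC12 cells, a line from a rat pheochromocytoma (a tumour of adrenal chromaffin cells), with and without a MAX expression plasmid. The genes were taken by name: nicotinic (Chrn) and muscarinic (Chrm) acetylcholine, GABA-A (Gabr), glutamate (Gria, Grik, Grin1 to Grin3, Grm), serotonin (Htr), ATP and nucleotide (P2rx, P2ry), adenosine (Adora), and alpha-1 and beta adrenergic (Adra1, Adrb) receptors. The RefSeq accessions of the arrays' probes matched 95 such symbols with 109 probes, of 41012 probes in all. One of these symbols, Htra1, is a secreted serine protease caught by its spelling, which leaves 94 receptor genes. Of these, 38 had a probe that stood clear of the local background, by the scanner software's own flag, on 2 or more of the 4 arrays and entered the comparison, among 25356 genes tested. Alpha-2 adrenergic and dopamine receptors were not in the rule.

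In the empty vector group, PC12 cells had been nucleofected with a vector without insert; in the MAX vector group, with an expression plasmid coding for MAX. Both lines had been grown in medium with fetal calf and horse serum and put under drug selection, per the labels. Each group was 1 transfected line sampled at passages 8 and 13, which gave 2 arrays per group and 4 in all. Spread between passages, not between separate transfections, is thus what the p-values measure, and the number of arrays limits the precision of every value.

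MAX is the partner that MYC and MXD proteins need to bind DNA at E-boxes, and PC12 cells are known to lack functional MAX. Neurotransmitter receptors are of 2 kinds. Ligand-gated channels are assembled from several subunits around a pore that opens when the transmitter binds, while G protein-coupled receptors are single chains that act through G proteins on enzymes and channels. Chromaffin cells are driven by acetylcholine from the splanchnic nerve acting on nicotinic channels, and ATP, adenosine and catecholamines that they release act back on receptors of their own surface.

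The E-box bound by MAX dimers, CACGTG, was looked for in RefSeq promoters of assembly GRCr8, each 300 bases long, from 250 bases before to 50 after the gene's start. The motif reads the same on both strands. Of the 28 receptor genes that entered the comparison and had an entry, 2 held it (7.14%), Chrna7 and P2ry2, beside 2148 of all 33469 promoters (6.42%). Both are shown with the motif in capitals, followed by Chrnb4 and Adora2b, whose windows lack it and which lie among the receptor genes with the smallest p-values; all 4 are written 5′ to 3′ on the gene's own strand.
Chrna7, chr1:126249080-126249379, minus strand, motif at -70: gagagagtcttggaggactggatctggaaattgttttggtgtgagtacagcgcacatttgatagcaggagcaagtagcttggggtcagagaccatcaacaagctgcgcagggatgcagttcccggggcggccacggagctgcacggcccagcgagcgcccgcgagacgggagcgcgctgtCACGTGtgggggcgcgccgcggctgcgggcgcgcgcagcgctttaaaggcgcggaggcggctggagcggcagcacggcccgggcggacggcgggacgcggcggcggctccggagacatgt
P2ry2, chr1:164779439-164779738, minus strand, motif at -39: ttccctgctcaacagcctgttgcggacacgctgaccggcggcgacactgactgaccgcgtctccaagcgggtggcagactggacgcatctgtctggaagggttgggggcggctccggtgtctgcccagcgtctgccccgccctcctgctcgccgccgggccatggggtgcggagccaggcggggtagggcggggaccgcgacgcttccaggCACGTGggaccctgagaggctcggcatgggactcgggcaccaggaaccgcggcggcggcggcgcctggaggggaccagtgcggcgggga
Chrnb4, chr8:64333060-64333359, minus strand: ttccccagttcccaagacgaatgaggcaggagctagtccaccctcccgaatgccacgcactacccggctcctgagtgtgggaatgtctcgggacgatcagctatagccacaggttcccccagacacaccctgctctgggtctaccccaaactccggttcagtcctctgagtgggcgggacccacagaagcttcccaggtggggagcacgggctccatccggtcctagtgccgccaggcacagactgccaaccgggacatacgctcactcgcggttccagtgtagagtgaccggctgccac
Adora2b, chr10:47439462-47439761, plus strand: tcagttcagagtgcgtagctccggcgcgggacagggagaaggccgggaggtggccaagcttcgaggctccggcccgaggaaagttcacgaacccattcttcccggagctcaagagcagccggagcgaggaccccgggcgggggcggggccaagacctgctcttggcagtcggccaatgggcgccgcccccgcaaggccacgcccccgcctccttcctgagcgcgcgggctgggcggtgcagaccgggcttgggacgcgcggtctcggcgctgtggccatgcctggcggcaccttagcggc

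Both genes with the motif had log2 fold changes near 0, -0.03 ± 0.14 for Chrna7 and 0.00 ± 0.12 for P2ry2, as described with their families. Over the 94 receptor genes matched, 67 had an entry and 3 held the motif (4.48%), the other being Chrna3, whose probe passed that flag on no array. A match of 6 letters is a description of the sequence and not a binding site. Whether the motif goes with a difference between groups was not tested. Grin3b, P2ry6 and Adora2a had no entry.

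Levels are log2 processed signal minus the array's 75th percentile; differences between groups are log2 fold changes of MAX vector minus empty vector, with the SE from limma. Levels of different probes are not set against each other. The 75th percentile was 590 to 700.5 signal units, and 26411 to 29328 probes per array were well above background. The array of MAX vector replicate 1 had the fewest, also among the 38 receptor genes, with 25 against 36, 37 and 34 on the others; it was alone on its slide, while the other 3 arrays shared a slide. The probe for Max itself was well above background on none of the 4 arrays (levels -8.36, -8.07, -7.61 and -7.94), so it checks neither the labels nor the plasmid's expression.

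Markers of cell identity moved with the groups, and their part in the receptor results was not tested. Among chromaffin markers, 8 of the 10 listed had a named probe and all 8 were well above background on at least 1 array; their summed signal was 11165 to 12726 units with empty vector and 5854 to 6562 with MAX vector. Ddc, the decarboxylase of catecholamine synthesis, is the largest part of that sum and fell by 1.08 ± 0.08 on the log2 scale (limma adjusted p = 0.039), while Th, the enzyme of the first step, rose by 2.15 ± 0.11 (adjusted p = 0.02) and Chga and Chgb overlapped between groups. Summed signals of 8 neuronal markers were 9522 to 11239 and 4242 to 4979 units, with all 8 lower. Those of 5 epithelial markers were 4483 to 5051 and 9042 to 9485, with all 5 higher. Of these, 1 neuronal and 1 epithelial marker passed the test. Macrophage markers (5 of 6 named) summed to 3424 to 3439 against 5368 to 5902 units. Cd14 is the largest part of that sum and differed by 0.82 ± 0.12, and Lyz2 by 1.32 ± 0.15, neither of which passed the test. Cd68, Csf1r and Adgre1 overlapped between groups. Fibroblast markers (4 of 6 named) summed to 86207 to 89322 against 79774 to 96272 units. Col3a1 is the largest part of the fibroblast sum; Lum differed by -1.19 ± 0.27 and Dcn by 0.75 ± 0.13, neither of which passed the test. Glial markers summed to 354.1 to 359.2 against 269.1 to 385.2 units and muscle markers to 218.8 to 236.7 against 149.4 to 236.8, with S100b, Myod1 and Myog well above background on no array. In bulk RNA, fewer cells of a type and less RNA per cell cannot be told apart.

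Most receptor genes gave no signal that could be compared. Grin2d lacked a usable spot on some array, which left 93 receptor genes. Of these, 49 were well above background on no array, 6 on 1 array, 5 on 2, 8 on 3 and 25 on all 4. No AMPA receptor gene (4 matched), the fast glutamate channels of neurons, was well above background on any array, and of the 4 muscarinic genes only Chrm1 was, on 1 array. Among 18 GABA-A subunit genes, 11 were on no array, as were 11 of 16 nicotinic, 3 of 4 kainate, 4 of 6 metabotropic glutamate and 5 of 11 G protein-coupled serotonin receptor genes. The 3 adenosine receptor genes and both genes of the serotonin-gated channel all entered the comparison. Levels of probes on no array ran from -8.80 to -5.68, which gives only an upper bound on their signal.

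**Figure D1:**
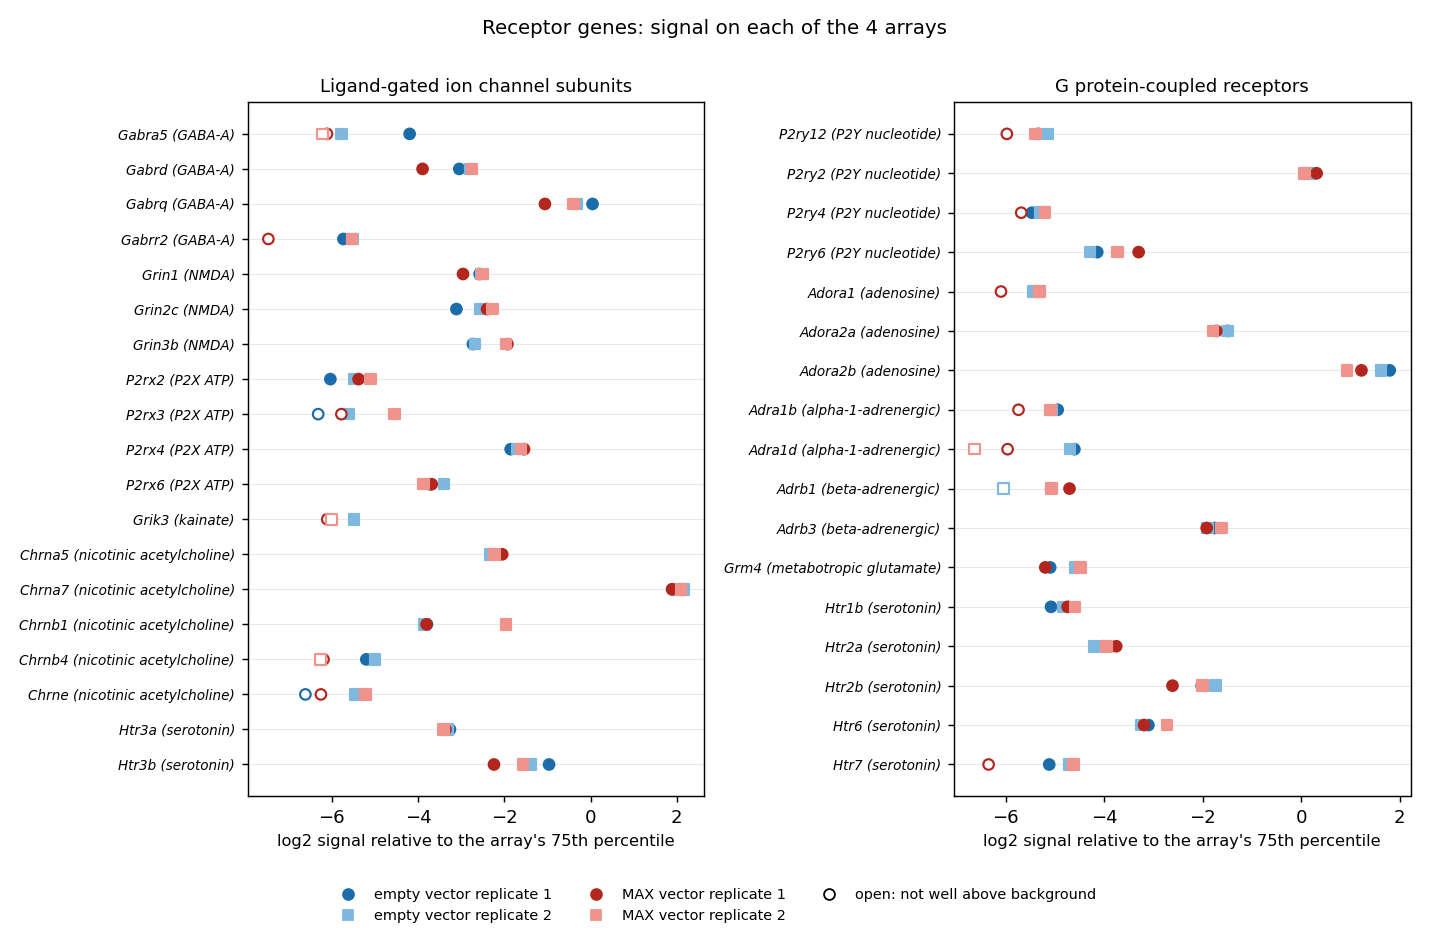
Level of 36 of the 38 receptor genes on each array, as log2 signal relative to the array's 75th percentile (x axis), for ion channel subunits (left) and G protein-coupled receptors (right); blue points are empty vector arrays, red points MAX vector arrays, open points arrays where the probe was not well above background. Grin3b separates the groups by more than its replicates differ, with empty vector at -2.73 and -2.68 and MAX vector at -1.93 and -1.96.

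Across the 38 receptor genes that entered the comparison, 1 passed the test, lower with the MAX vector. That is 2.63% of them, beside 213 of all 25356 genes (0.84%; 0.576% higher and 0.264% lower). At an unadjusted p under 0.05 were 7 receptor genes (18.4%), 5 lower and 2 higher, beside 16.1% of all genes (8.21% lower, 7.93% higher). The 2 groups did not overlap for 11 receptor genes that were lower (28.9%, beside 26% of all genes) and 9 that were higher (23.7%, beside 24.2%), so these shares lay near the background. With slide 1 only, with the replicate block or with any array left out, 0 receptor genes passed (6 to 17 at an unadjusted p under 0.05 in limma).

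The log2 fold change was negative in 23 of 38 receptor genes (60.5%, beside 53.5% of all genes), with a median of -0.14 beside -0.02. At least 2-fold lower were 4 receptor genes (10.5%, beside 1.79%), among them Adra1d, Gabra5 and Chrnb4, and at least 2-fold higher were 0 (beside 1.64%). Their median SE was 0.23, beside 0.12 over all genes, and by the probe used 14 of them (36.8%, beside 9.99%) were not well above background on all 4 arrays. Of the 4 genes past 2-fold lower, 3 were well above background on the empty vector arrays alone and so entered the comparison through that group, which makes the counts and medians over the 38 a description only. In the 24 genes well above background on all 4 arrays, 12 were negative and the median was 0.00; in the other 14, 11 were negative and the median was -0.43.

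**Figure D2:**
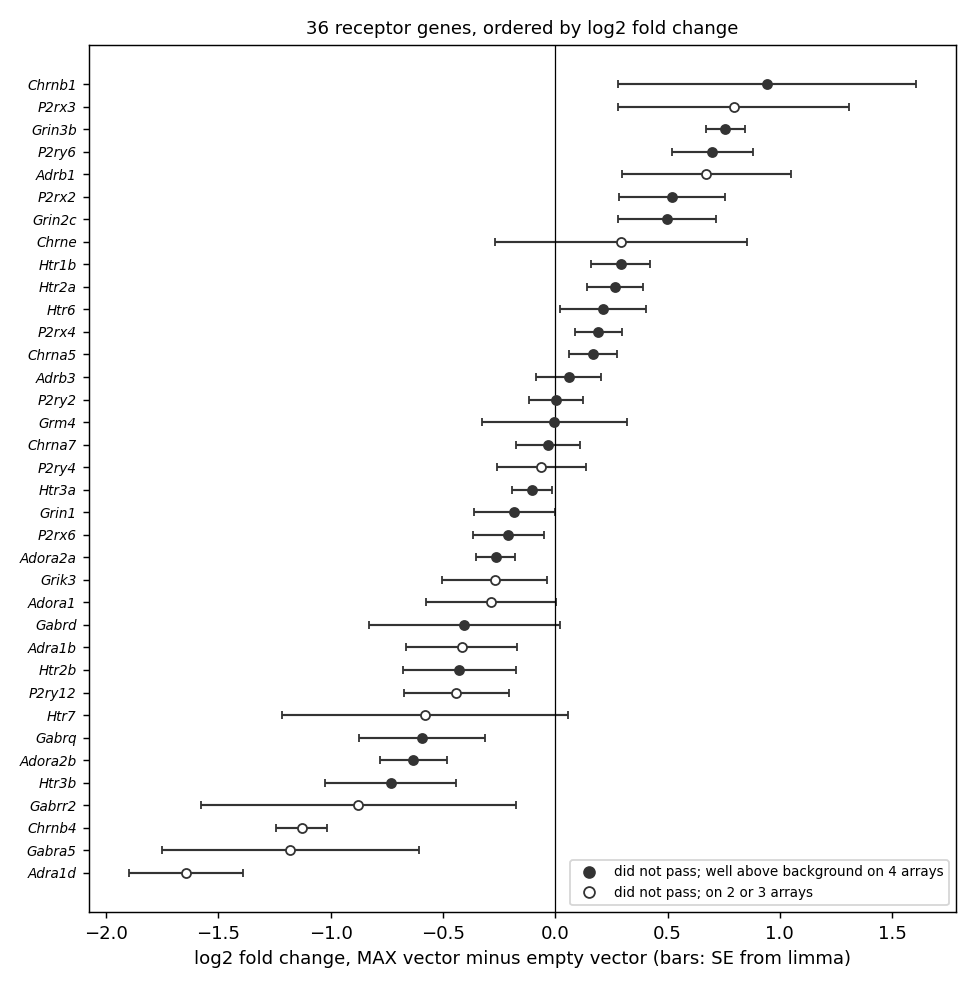
Log2 fold change (MAX vector minus empty vector) of 36 of the 38 receptor genes, lowest at the bottom, with the SE from limma as bars; open points are genes not well above background on all 4 arrays. Adra1d is lowest at -1.65, and most open points lie left of 0.

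The balance of directions changed with the array left out, and of these fits the median was positive only without MAX vector replicate 1. Without it, 16 of 38 receptor genes were negative with a median of 0.09, beside a median of 0.0067 over all genes. Without MAX vector replicate 2, 26 were negative with a median of -0.27, beside -0.0314 over all genes. The median was -0.26 without empty vector replicate 1 (beside -0.0271) and -0.03 without empty vector replicate 2 (beside -0.0089). MAX vector replicate 1 was the lowest of the 4 arrays for 16 receptor genes (42.1%, beside 31.9% of all genes). MAX vector replicate 2 was the highest for 14 (36.8%, beside 26.6%). The receptor genes' median gap between the MAX vector replicates was 0.40, beside 0.18 between the empty vector replicates. Over all genes these gaps were 0.15 and 0.12. The place of MAX vector replicate 1 alone on a slide cannot be told apart from that replicate itself.

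**Figure D3:**
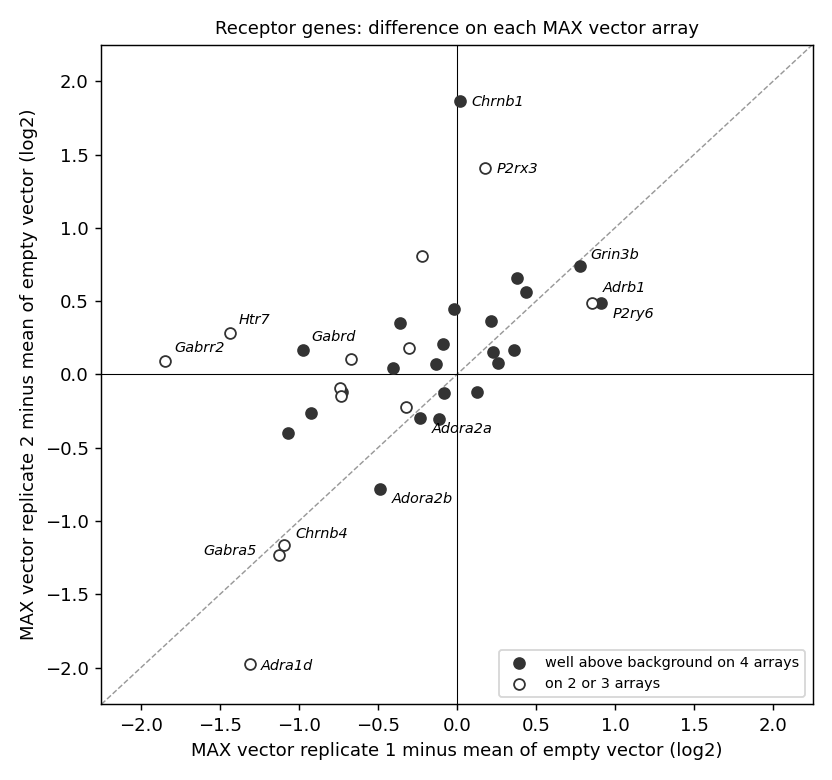
Difference of each MAX vector array from the mean of the empty vector arrays, for MAX vector replicate 1 (x axis, log2) and MAX vector replicate 2 (y axis, log2), 1 point for each of 36 receptor genes; the dashed line marks equal differences, and open points are genes not well above background on all 4 arrays. Chrnb4 and Grin3b lie near the line, whereas Gabrr2 is low only on MAX vector replicate 1 (-1.85 against 0.09) and Chrnb1 high only on MAX vector replicate 2 (1.87 against 0.02).

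Among the nicotinic acetylcholine receptor genes, the cation channels through which chromaffin cells are stimulated, none of the 5 in the comparison passed the test. Chrnb4 codes for the beta-4 subunit, which with alpha-3 and alpha-5 forms the ganglionic type of the receptor, and lies in 1 cluster with their genes. Its levels were -5.20 and -4.99 with empty vector and -6.19 and -6.26 with MAX vector, or 19.1, 19.3, 8.10 and 8.71 signal units. The groups did not overlap, and the probe was well above background on both empty vector arrays and neither MAX vector array. The fitted log2 fold change was -1.13 ± 0.11 with a limma adjusted p of 0.056, above the threshold of 0.05. Chrnb4 passed in 1 of 16 alternative settings, median scaling. The bound on the group means was 1.69-fold lower. Such a bound sets the brighter group's mean against the lowest signal well above background on the dimmer group's arrays, or the probe's own signal where that is higher. It has no error term and holds for the reported background correction only.

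Of the cluster's other genes, Chrna5, an accessory subunit, stood at -2.27, -2.33, -2.05 and -2.22 (empty vector 1 and 2, then MAX vector 1 and 2; the same order is used from here), a difference of 0.17 ± 0.11. Chrna3, the alpha-3 subunit, was not well above background on any array.

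Chrna7, whose subunit forms calcium-permeable channels on its own, had levels of 1.90, 2.15, 1.89 and 2.10. The arrays of both groups overlapped, and the difference was -0.03 ± 0.14 (95% interval -0.43 to 0.37). That rests on 1 probe, as its other 2 probes were well above background on no array. Chrnb1, a subunit of the muscle receptor, had levels of -3.79, -3.85, -3.80 and -1.95. Only MAX vector replicate 2 was high, and the difference of 0.94 ± 0.66 rests on that array. Chrne, the epsilon subunit of the adult muscle receptor, differed by 0.29 ± 0.56 and was well above background on 1 array of each group; without empty vector replicate 1 it had -0.29.

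Serotonin-gated channel genes were both lower on the MAX vector arrays, without passing the test. Htr3b, an accessory subunit, had levels of -0.96, -1.38, -2.24 and -1.57 and a difference of -0.73 ± 0.29 (adjusted p = 0.35). Htr3a, the subunit that every functional channel of this type needs, had levels of -3.26, -3.31, -3.36 and -3.41 and a difference of -0.10 ± 0.09. The groups did not overlap for either gene, but 26% of all genes were lower without overlap. In Htr3b the replicates were 0.42 and 0.67 apart, and without MAX vector replicate 1 its difference was -0.40. The other Htr3b probe, well above background on 1 array, gave -0.05.

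GABA-A receptor genes code for chloride channels, which in chromaffin cells can depolarise. All 5 in the comparison had negative differences, beside 53.5% of all genes, and none had an unadjusted p under 0.05. Gabrq (theta subunit) stood at 0.05, -0.31, -1.06 and -0.39, a difference of -0.59 ± 0.28. MAX vector replicate 1 was the low array there, as it was for Gabrd (delta) and Gabrr2 (rho-2), whose differences were -0.40 ± 0.43 and -0.88 ± 0.70. Gabrr2 stood at -5.73, -5.51, -7.47 and -5.53, and without MAX vector replicate 1 its difference was 0.09; Gabrd then had 0.17.

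Gabra5 (alpha-5) had levels of -4.19, -5.77, -6.11 and -6.22, with a difference of -1.18 ± 0.57. It was well above background on both empty vector arrays alone, with a bound of 1.82-fold higher there. The empty vector replicates were 1.58 apart, and that bound rests on empty vector replicate 1. Without empty vector replicate 1 the difference was -0.39.

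Glutamate-gated channel genes were represented by 3 NMDA subunits and 1 kainate subunit. Grin3b codes for the GluN3B subunit, which binds glycine and lowers the calcium flow of NMDA channels, and had levels of -2.73, -2.68, -1.93 and -1.96 (106, 95.4, 155 and 171 signal units). Replicates of a group lay 0.04 to 0.05 apart, and the groups did not overlap. The difference was 0.76 ± 0.09, or 1.69-fold higher, with a limma adjusted p of 0.067. It passed in 3 of 17 alternative settings and missed the threshold in the other 14 and in the reported one.

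Grin2c, a subunit with low sensitivity to magnesium block, had 0.50 ± 0.22 with the empty vector replicates 0.55 apart. Grin1, the subunit that every NMDA receptor needs, had levels of -2.57, -2.53, -2.95 and -2.51 and a difference of -0.18 ± 0.18. Grik3, of the kainate type, stood at -6.09, -5.48, -6.10 and -6.00, a difference of -0.27 ± 0.24. The groups overlapped and neither MAX vector array was well above background, so the bound of 1.03-fold lower sets no direction. Without empty vector replicate 2 the Grik3 difference was 0.03.

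P2X genes code for ATP-gated cation channels, of which P2X2 is the type long studied in PC12 cells. None of 4 passed the test. P2rx4 had levels of -1.85, -1.69, -1.54 and -1.62 and a difference of 0.19 ± 0.10. P2rx2 stood at -6.03, -5.48, -5.37 and -5.09, a difference of 0.52 ± 0.24, while its other probe in the comparison, well above background on 2 arrays, gave 0.02. P2rx3 had a difference of 0.79 ± 0.51 from a probe at -6.31, -5.60, -5.77 and -4.54 that was well above background on 1 array of each group, and 0.24 from its other probe, which was so on all 4 arrays. P2rx6, whose subunit rarely forms channels alone, differed by -0.21 ± 0.16.

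Adrenergic receptors respond to the catecholamines that these cells make, and beta receptors couple to Gs and raise cyclic AMP. Adrb3, the beta-3 type, had levels of -1.76, -1.91, -1.92 and -1.62 and a difference of 0.06 ± 0.14. Adrb1, the beta-1 type, stood at -5.08, -6.04, -4.71 and -5.07, with a difference of 0.67 ± 0.38 and empty vector replicate 2 not well above background. MAX vector replicate 2 lay level with empty vector replicate 1. Neither passed the test.

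Alpha-1 receptors couple to Gq and calcium release. Adra1d had the most negative difference of the 38 genes, with levels of -4.61, -4.69, -5.96 and -6.63 (28.8, 23.6, 9.47 and 6.73 signal units). Both MAX vector arrays were below both empty vector arrays and neither was well above background. The fitted difference was -1.65 ± 0.25, with a limma adjusted p of 0.11, and the bound on the group means was 2.29-fold lower. Adra1d passed in 1 of 16 alternative settings, median scaling. Adra1b had -4.95, -5.06, -5.74 and -5.10 and a difference of -0.42 ± 0.25, which came to -0.09 without MAX vector replicate 1.

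Adenosine receptors lie downstream of the ATP that chromaffin cells release, once it has been broken down outside the cell. All 3 had negative differences, beside 53.5% of all genes. An unadjusted p under 0.05 was found for 2 of them, beside 16.1% of all genes, and none passed the test. Adora2b, the low-affinity type that couples to Gs, had levels of 1.80, 1.62, 1.22 and 0.93, or 2433, 1875, 1377 and 1267 signal units. The arrays of the groups did not overlap. Its difference was -0.63 ± 0.15, 1.55-fold lower, with an adjusted p of 0.19 (95% interval -1.05 to -0.22).

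Adora2a, the high-affinity Gs-coupled type and the one known from PC12 cells, stood at -1.50, -1.49, -1.72 and -1.79. Replicates lay close together there, and the difference was -0.26 ± 0.09 (adjusted p = 0.28); its other probe gave -0.13. Adora1, which couples to Gi, had -0.28 ± 0.29, and 0.10 without MAX vector replicate 1.

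P2Y receptors are the G protein-coupled receptors for nucleotides. P2ry6, which prefers UDP, had levels of -4.14, -4.29, -3.30 and -3.73, with both MAX vector arrays above both empty vector arrays. The difference was 0.70 ± 0.18, 1.62-fold higher, with an adjusted p of 0.22. P2ry2, the ATP and UTP receptor whose promoter holds the E-box printed above, stood at 0.18, 0.19, 0.31 and 0.06, a difference of 0.00 ± 0.12 (95% interval -0.34 to 0.34). The arrays of both groups overlapped. P2ry12, the Gi-coupled ADP receptor, had -0.44 ± 0.23 and P2ry4, a UTP receptor, -0.06 ± 0.20; each was not well above background on MAX vector replicate 1.

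Among the 5 G protein-coupled serotonin receptor genes in the comparison, none had an unadjusted p under 0.05. Htr2b, which couples to Gq, had levels of -2.02, -1.75, -2.61 and -2.01 and a difference of -0.43 ± 0.25. Groups overlapped, with MAX vector replicate 1 low. Htr1b, Htr2a and Htr6 had differences of 0.29 ± 0.13, 0.26 ± 0.13 and 0.21 ± 0.19, and Htr7 -0.58 ± 0.64 with its replicates in the MAX vector group 1.72 apart; without MAX vector replicate 1, Htr7 had 0.28. Of the metabotropic glutamate receptors, Grm4 alone was measured, at -5.10, -4.58, -5.20 and -4.49, a difference of 0.00 ± 0.32. The replicates of each group lay further apart than the groups.

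Htra1, the protease matched by its spelling, stood at 7.57, 7.58, 7.70 and 7.68, and its difference was 0.11 ± 0.08.

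**Figure D4:**
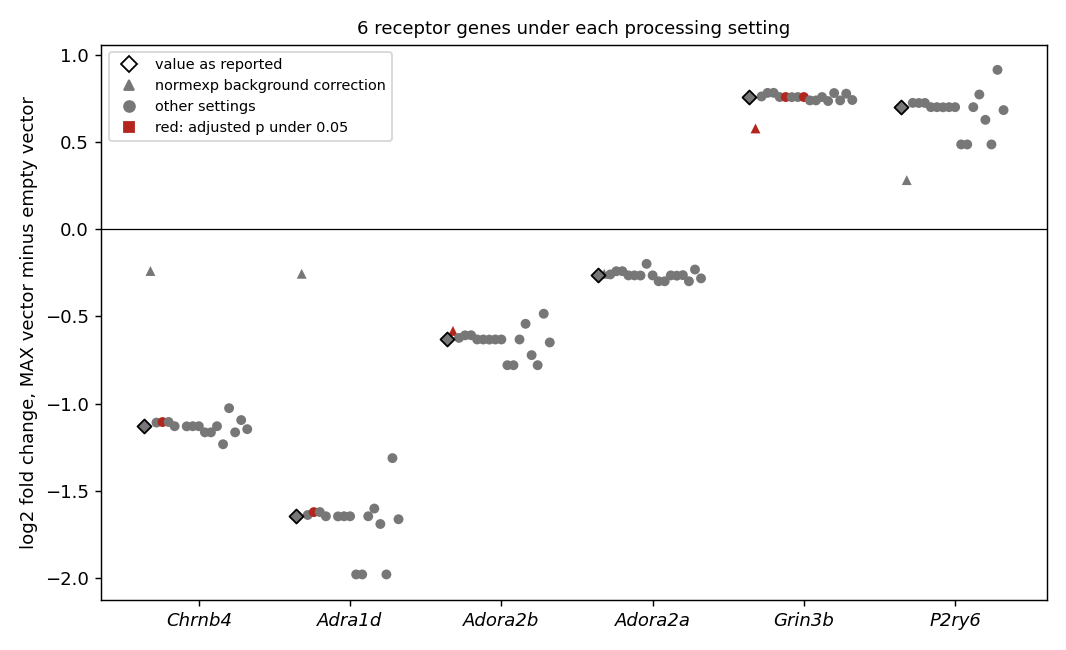
Log2 fold change (MAX vector minus empty vector, y axis) of 6 receptor genes with an unadjusted p under 0.05 (x axis) under the reported and the alternative processing settings; diamonds mark the reported value, triangles the normexp background correction and red an adjusted p under 0.05. Every point keeps its gene's direction, while normexp moves Adra1d from -1.65 to -0.26 and Chrnb4 from -1.13 to -0.24.

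Differences of several receptors with low signals were smaller under normexp. That setting starts from the median spot signal, corrects background differently and adds an offset of 50 to every spot. Which of these moved the values was not tested. The difference was then -0.26 for Adra1d, -0.24 for Chrnb4 and -0.29 for Gabra5. P2ry6 and Chrnb1, well above background on all 4 arrays, went from 0.70 to 0.28 and from 0.94 to 0.52. Adora2b kept -0.58 and Grin3b 0.58, both then past the threshold (limma adjusted p = 0.045 and 0.039).

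Genes that receptors act through, or that hold or silence them, were read from 4 lists with 120 genes, of which 74 were measured. With the MAX vector, 2 of the 74 rose and 0 fell, beside 0.576% of all genes higher and 0.264% lower. One of the 2, Grip1, entered only through the MAX vector arrays, so nothing is read from that count. At an unadjusted p under 0.05 were 7 higher and 8 lower, beside 7.93% and 8.21% of all genes. List medians were -0.02 for 24 scaffold and trafficking genes, 0.01 for 21 G protein subunits, 0.10 for 16 effectors and 0.10 for 13 desensitisation genes, near the -0.02 of all genes.

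Plcb1 codes for phospholipase C beta-1, the enzyme that Gq-coupled receptors switch on, and had levels of -5.15, -4.76, -2.72 and -2.46. Both MAX vector arrays were above both empty vector arrays. It rose by 2.36 ± 0.19 on the log2 scale, 5.15-fold, with an adjusted p of 0.04 from limma. Plcb3 and Plcb4, of the same enzyme family, had 0.23 ± 0.16 and -0.14 ± 0.12, and the Gq subunits Gnaq and Gna11 -0.02 ± 0.13 and -0.02 ± 0.11.

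Grip1, a scaffold that binds AMPA receptor tails and other membrane proteins, had levels of -7.03, -6.59, -4.63 and -4.55. It was well above background on the MAX vector arrays alone, with a bound of 3.27-fold higher. The fitted log2 fold change was 2.22 ± 0.18, with a limma adjusted p of 0.041. The AMPA receptor genes were well above background on no array. Neither Plcb1 nor Grip1 passed with the slide as a block, with the replicate block, without the filter or with any array left out. Each kept its direction. With normexp Plcb1 had 0.92 and passed (limma adjusted p = 0.0012), while Grip1 had 0.42 and did not (adjusted p = 0.14).

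The other list members with the most positive and most negative differences did not pass. Tmem35a, a chaperone needed for assembly of alpha-7 nicotinic receptors, had levels of -2.74, -2.30, -1.34 and -1.26 and a difference of 1.22 ± 0.18 (adjusted p = 0.10), beside the -0.03 of Chrna7. Rgs4, which shortens Gq and Gi signals, had 0.75 ± 0.12 (adjusted p = 0.11). Among G protein subunits, Gng11, a gamma subunit, stood at -5.76, -5.51, -6.84 and -6.80 (limma adjusted p = 0.057). Its MAX vector arrays were not well above background, and the bound on the group means was 1.16-fold lower. Gnb3, a beta subunit, had 0.44 ± 0.21. The most negative of the scaffold and desensitisation lists were Cacng3 (an AMPA receptor partner) at -0.50 ± 0.15 and Rgs12 at -0.30 ± 0.09.

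**Figure D5:**
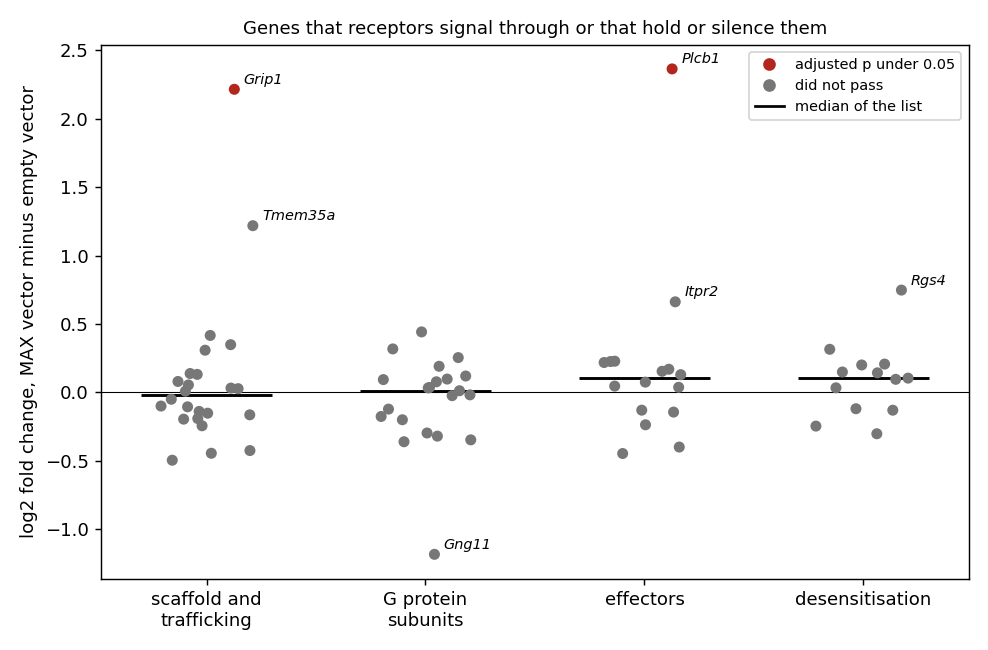
Log2 fold change (MAX vector minus empty vector, y axis) of the 74 measured genes of 4 lists of receptor partners (x axis), 1 point per gene, with the list's median as a bar and red for an adjusted p under 0.05. Plcb1 at 2.36 and Grip1 at 2.22 are the points in red, and the medians lie between -0.02 and 0.10.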

How the data were processed

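Agilent rat arrays of 1 colour (Cy3) measured total RNA of 4 PC12 samples. The authors deposited scanner files of spot intensity, written by Feature Extraction 10.7.3.1 per the file headers (10.7 per the submitters' processing notes), with annotation of rn4. Per the file headers, the processed intensity had its background subtracted and a spatial trend removed; arrays were not brought to a common scale. A table of log2 values was deposited too. Differences between its columns matched the scanner files (r = 1 over probes; the residual SD was at most 4.3e-07), which settles scale and direction. Its centring per probe stays unknown; column medians were -0.033, -0.011, -0.005 and -0.006.

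Outlier spots were left out, log2 processed intensities averaged per probe, and each array's 75th percentile over probes subtracted; 89 probes had no usable spot on some array. Kept were the 28564 probes flagged as well above background on 2 or more arrays, with the brightest probe per gene. Accessions were matched without versions to RefSeq genes of GRCr8, which named 10768 probes; coordinates printed are those of GRCr8 only. Groups were compared over all 25356 genes with limma 3.58.1 in R 4.3.3 (3.94 total degrees of freedom, Benjamini-Hochberg, threshold 0.05), after the steps had been tested on simulated data. The members, gene lists and marker lists were chosen with earlier results of these data known. Receptor genes were given in full where p or adjusted p was under 0.05, where brightest in their family, among the 6 most positive or 6 most negative differences, or with a bound; of the lists, genes that passed and the most positive and most negative difference of each. Some genes that this names are not reported here. Other genes named (among them further list members) were chosen after their values were seen. Both groups were sampled at passages 8 and 13, but which number is which passage is not given in the sources used here; deviations from the group means correlated at -0.02 between same-numbered arrays over all genes and at 0.08 over genes on all 4 arrays, so numbers were not used to pair the samples. Alternatives changed background correction, scaling, filter, probe choice, variance model, slide, block and left-out arrays. Normexp used the median spot signal, since the files used here hold no mean signal.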

Additional observations from a re-analysis of the deposited data

How the results depend on the processing

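The number of arrays and the dim signal of many receptor probes set the limits: each test rested on 2 residual degrees of freedom before limma pooled the spread, and the probes used for 14 of 38 receptor genes were not well above background on all 4 arrays. Slide 2 held 1 array, so taking the slide as a block, keeping slide 1 only and leaving out MAX vector replicate 1 are the same fit. Of all genes, 213 were called as reported, 799 with normexp, 541 with median scaling, 955 with a trended variance, 515 with only probes on all 4 arrays, 8 with slide 1 only, 0 without a filter (4033 at an unadjusted p under 0.05 in limma), 0 with the replicate block (3885 unadjusted) and 0 to 144 with an array left out. Receptor genes called numbered 3 with normexp, 3 with median scaling, 2 with a trended variance, 2 on all 4 arrays, and 0 with quantile normalization (8 at an unadjusted p under 0.05 in limma), no filter (13), slide 1 only (9), the replicate block (10) and each left-out array (6 to 17). List genes called numbered 4 with median scaling, 5 with a trended variance, and 0 without a filter (12 at an unadjusted p under 0.05 in limma), with slide 1 only (10), the replicate block (15) and each left-out array (7 to 15). The receptor genes' median log2 fold change was -0.14 as reported, -0.029 with normexp, 0.17 without a filter (93 genes), 0.0035 on all 4 arrays, 0.0865 with slide 1 only and -0.27 to 0.0865 with an array left out. The direction turned for genes whose difference was near 0 or rested on 1 array. Grm4 had 0.0045 with normexp, 0.055 with quantile normalization, 0.0203 with median scaling, 0.0207 with the percentile over probes on all 4 arrays, 0.35 with slide 1 only and -0.36 to 0.35 with an array left out; P2ry2 had -0.033 with normexp, -0.0067 with quantile normalization, -0.12 with slide 1 only, -0.12 to 0.13 with an array left out and -0.0134 with the percentile over all spots, a setting chosen after seeing the data. With slide 1 only, Chrna7 had 0.072 and Gabrr2 0.093. With an array left out, Adrb3 ran from -0.089 to 0.21, Chrna7 from -0.16 to 0.094, Gabrr2 from -1.85 to 0.093 and Grik3 from -0.57 to 0.034. Among other receptor genes, Adora1 had 0.10, Gabrd 0.17, Grin1 0.041, Htr7 0.28 and P2ry4 0.18 without MAX vector replicate 1, Chrne -0.29 without empty vector replicate 1 and -0.22 without MAX vector replicate 2, Htr6 -0.0205 without MAX vector replicate 2, P2ry4 0.0234 without empty vector replicate 2, and Htr3a 0.034 with normexp. The cause of these shifts was not tested. No scaling alternative moved the median of all genes by over 0.1.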

Other observations

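Of the 6 receptor genes well above background on 1 array only, 4 had a level on that array far from those on the other 3. Chrm1, the M1 muscarinic receptor, stood at -2.96 on empty vector replicate 1 and at -6.26, -7.78 and -5.88 on the others. Gabrb1, the beta-1 subunit of the GABA-A receptor, stood at -4.59 on the same array and between -8.21 and -7.82 elsewhere. Htr4, a Gs-coupled serotonin receptor, had -4.41 on MAX vector replicate 2 and -8.58 to -7.81 elsewhere, and Gabra6, the alpha-6 GABA-A subunit, had -5.29 on that array and -8.66 to -7.84 elsewhere. Each value is a single probe on a single array. P2rx5 passed on empty vector replicate 1 at -6.24, close to its level on empty vector replicate 2 (-6.38).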
